A study of Homo sapiens with 4 samples.

Results

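The comparison described here is the step between 2 libraries of a human lymphoma line exposed to doxycycline, the library labelled 48 h set against the library labelled 16 h. All genes measured by a probe set with exactly 1 gene symbol were taken, 19088 genes in all, and 11453 of them had a mean log2 intensity over the 2 libraries of at least 5.14, the 40th percentile, and are called genes past the filter. The series asks which genes BCL6 regulates, per its title. It holds 4 libraries, of which the comparison uses 2, and the library labelled 0 h entered no step. The cells are clone AB7 of DG75, an established Burkitt's lymphoma line, so every library comes from 1 clone. Its native BCL6 gene is disrupted (Bcl6-/-) and it carries an HA-tagged, tetracycline-regulated BCL6 (tetBCL6-HA), and all libraries share both changes. The 48 h library was grown for 48 h, and the 16 h library for 16 h, with 1 µg/ml doxycycline, and a library labelled 96 h with the same dose is quoted beside some genes. Total RNA was measured on 1-colour arrays, and values are log2 intensities as deposited, so that a difference of 1 is a 2-fold difference. With 1 library on each side there is no replicate check and no test, and the labels do not say if separate cultures were used.

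BCL6 is a transcriptional repressor that germinal centre B cells need. It is known to hold back genes of activation, of interferon response and of plasma cell differentiation while these cells divide fast, and Burkitt's lymphoma is a tumour of germinal centre type that keeps many of the same programmes. A cell that leaves the cycle turns down its replication and mitosis genes together, many through promoter elements bound by the DREAM and MuvB complexes and by E2F factors, and an interferon response turns up its effectors through the interferon-stimulated response element.

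BCL6 itself had a log2 intensity of 10.25 in the library labelled 48 h, against 10.58 in the library labelled 16 h, a difference of -0.33, and it had 10.50 in the library labelled 96 h. BCL6 was thus lower in the later of the 2 compared libraries, so libraries are called by their labels here. Which copy of BCL6 the probe set reads is not stated in the labels.

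The cell type was checked against 9 markers that define B cells. Of these, 8 were past the filter. CD79B and CD79A, the signalling chains of the B cell receptor, had 9.65 and 9.27 in the 48 h library, against 9.53 and 9.26 in the 16 h library. PAX5, which fixes B cell identity, had 9.01 at 48 h and 8.97 at 16 h. EBF1, an early B cell factor, had 6.62 at 48 h and 7.06 at 16 h. The probe set of MS4A1, which encodes CD20, was below the filter with 4.94 at 48 h and 4.43 at 16 h. Markers of other cells were mostly dim. Of the measured markers, 1 of 10 for NK cells, 1 of 9 for monocytes and macrophages, 5 of 12 for fibroblasts and epithelium and 8 of 18 for T cells were past the filter. CD3D, CD2 and CD8A were below it, with 4.32, 4.33 and 4.86 in the 48 h library, against 4.30, 4.24 and 4.83 in the 16 h library. CD3E, a chain of the T cell receptor complex, had 7.95 at 48 h and 7.46 at 16 h, and CD4 had 9.01 at 48 h and 8.83 at 16 h. The cells are 1 clone of an established line, and whether any other cells added to a result below was not tested. In bulk RNA, fewer cells of a kind and less RNA per cell cannot be told apart.

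The 2 libraries lay close together. Of the 11453 genes past the filter, 83.1% differed by less than 1.2-fold, the median difference was -0.025 and the SD over genes was 0.202. A difference of 1.5-fold or more (0.585 in log2 units) was found for 38 genes higher at 48 h (0.332% of the genes past the filter) and for 87 genes lower (0.76%). Thus 30.4% of these 125 genes were higher at 48 h, and 41.7% were (48 higher and 67 lower) once each library was centred on its own median. A difference above 0 was found for 5077 genes, 44.3% of those past the filter, and every count of list members above 0 given below is to be read against that share. Counts of members at least 1.5-fold lower or higher are to be read against 0.76% and 0.332%. At least a 2-fold difference was found for 5 genes higher (IGHE, LAPTM5, ALDOC, CCL5 and ACSM3) and 4 lower (DGKB, DNAJC22 and 2 unnamed loci). Of the 7635 genes below the filter, 8 were at least 1.5-fold higher and 11 lower, together 0.249% of them.

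How far the measurement itself scatters can be read from 248 genes with 2 probe sets past the filter. The SD of the difference of a single probe set was 0.136 from these pairs, the median gap within a pair was 0.0661, and 5 pairs disagreed by 1.5-fold or more. This is a spread between probe sets of the same 2 libraries and holds no spread between cultures. Differences also ran with brightness: over 5 bins of equal gene number the dimmest had a median of 0.03 and the brightest -0.08. The plot of the difference against the mean level shows this slope and the genes past the threshold.

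**Figure D1:**
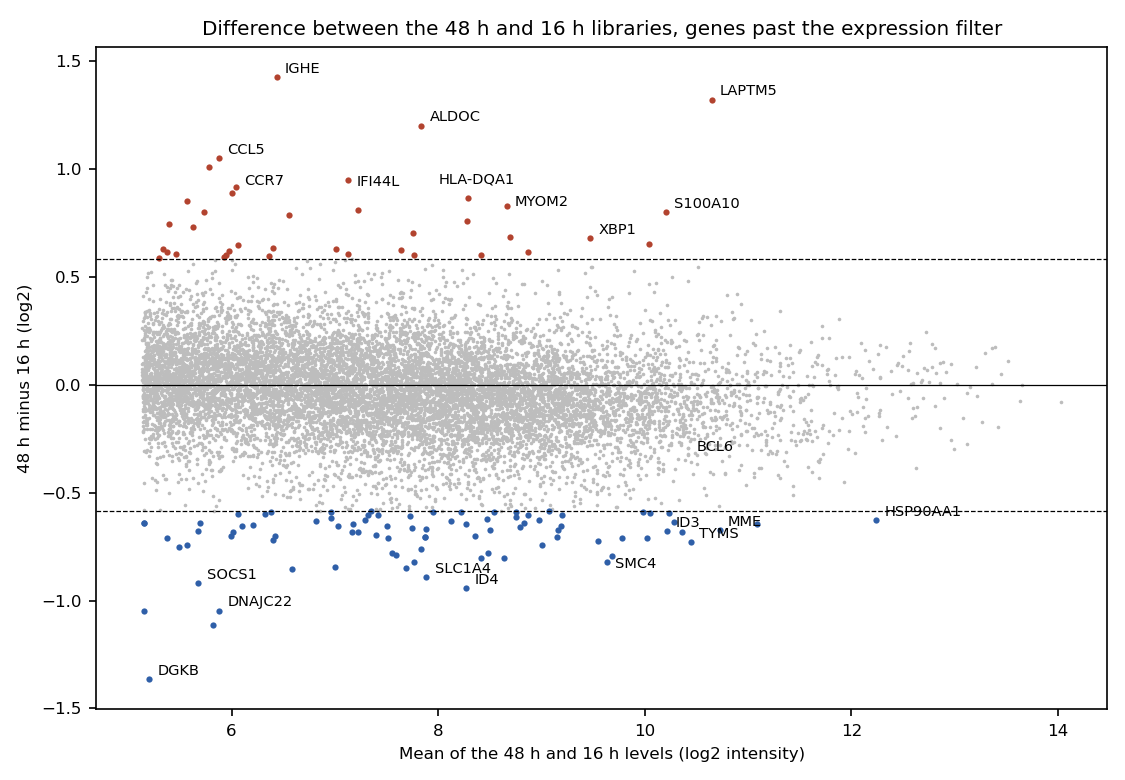
Each point is 1 of 11453 genes past the filter, with the mean log2 intensity of the 48 h and 16 h libraries on the x axis and the 48 h minus 16 h difference in log2 units on the y axis. Red points are the 38 genes at least 1.5-fold higher at 48 h, blue points the 87 genes at least 1.5-fold lower, and dashed lines mark the threshold of 0.585. LAPTM5 stands apart among bright genes on the higher side, while bright genes on the lower side, such as HSP90AA1 and SMC4, stay within 1 log2 unit.

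Among named genes the largest difference above 0 was that of LAPTM5, a lysosomal membrane protein of blood cells that lowers B cell receptor levels. LAPTM5 had 11.31 in the 48 h library, against 9.99 in the 16 h library, which is 2.50-fold higher, and it had 11.89 at 96 h. ALDOC, an aldolase of glycolysis, had 8.44 at 48 h and 7.23 at 16 h, more than 2-fold higher. CCL5, a chemokine that draws T cells, had 6.41 at 48 h and 5.35 at 16 h, 2.07-fold higher, and ACSM3, an acyl-CoA synthetase of mitochondria, had 6.29 at 48 h and 5.28 at 16 h, 2.01-fold higher. CCL5 and ACSM3 were dim in both libraries, and in the second deposited table their differences were 0.83 and 0.79 in place of 1.05 and 1.01. The chemokine receptor CCR7, which guides lymphocytes to lymph nodes, had 6.50 at 48 h and 5.58 at 16 h, a difference of 0.92, and it had 7.28 at 96 h.

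The other genes of the top 20 had differences between 0.64 and 0.95. S100A10, a partner of annexin, had 10.60 at 48 h and 9.80 at 16 h, and 11.22 at 96 h. FCRL3, an Fc receptor-like protein of B cells, had 7.63 at 48 h and 6.82 at 16 h. XBP1, the transcription factor that prepares secretory cells for antibody export, had 9.81 at 48 h and 9.13 at 16 h. TRAF4, an adaptor of the TRAF family, had 9.04 at 48 h and 8.35 at 16 h. MYOM2, a structural protein of the muscle sarcomere, had 9.08 at 48 h and 8.25 at 16 h. The largest difference of all genes past the filter was at IGHE, the constant region of IgE, with 7.15 at 48 h and 5.72 at 16 h, a difference of 1.43, and with 6.64 at 96 h. Antigen receptor segments are outside the rule for named genes, so IGHE was chosen after its values were seen, and its sequence resembles that of other constant regions, which makes its level uncertain. The other immunoglobulin genes past the filter (IGHA1, IGH and IGKV3D-11) differed by -0.06 each.

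On the lower side DGKB, a diacylglycerol kinase, had 4.52 in the 48 h library, against 5.88 in the 16 h library, a difference of -1.36, and 4.14 at 96 h. Its 48 h level lay under the filter level, and the second table gave -0.95. DNAJC22, a membrane protein with a J domain, had 5.36 at 48 h and 6.40 at 16 h. It was dim too, and its difference of -1.05 was -0.82 in the second table. Brighter genes differed less. ID4, an inhibitor of E proteins, had 7.80 at 48 h and 8.74 at 16 h, 1.92-fold lower. SLC1A4, a carrier of small neutral amino acids, had 7.44 at 48 h and 8.33 at 16 h, 1.85-fold lower, and SMC4, a condensin subunit that compacts mitotic chromosomes, had 9.22 at 48 h and 10.04 at 16 h, 1.77-fold lower. TBCK, which has a kinase-like and a TBC domain, had 7.27 at 48 h and 8.11 at 16 h, but 7.97 at 96 h. SOCS1, the inhibitor of JAK kinases, had 5.22 at 48 h and 6.14 at 16 h, and 6.26 at 96 h. Among the 16, 48 and 96 h libraries, SOCS1 and TBCK thus had their lowest value at 48 h, whereas DGKB, DNAJC22 and SLC1A4 were lower again at 96 h. All of these genes were picked by the size of their 48 h difference, which favours extreme 48 h values. Whether the low 48 h values of SOCS1 and TBCK exceed scatter of 1 library was not tested. SOCS1 was dim, and the second table gave -0.69 for it.

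**Figure D2:**
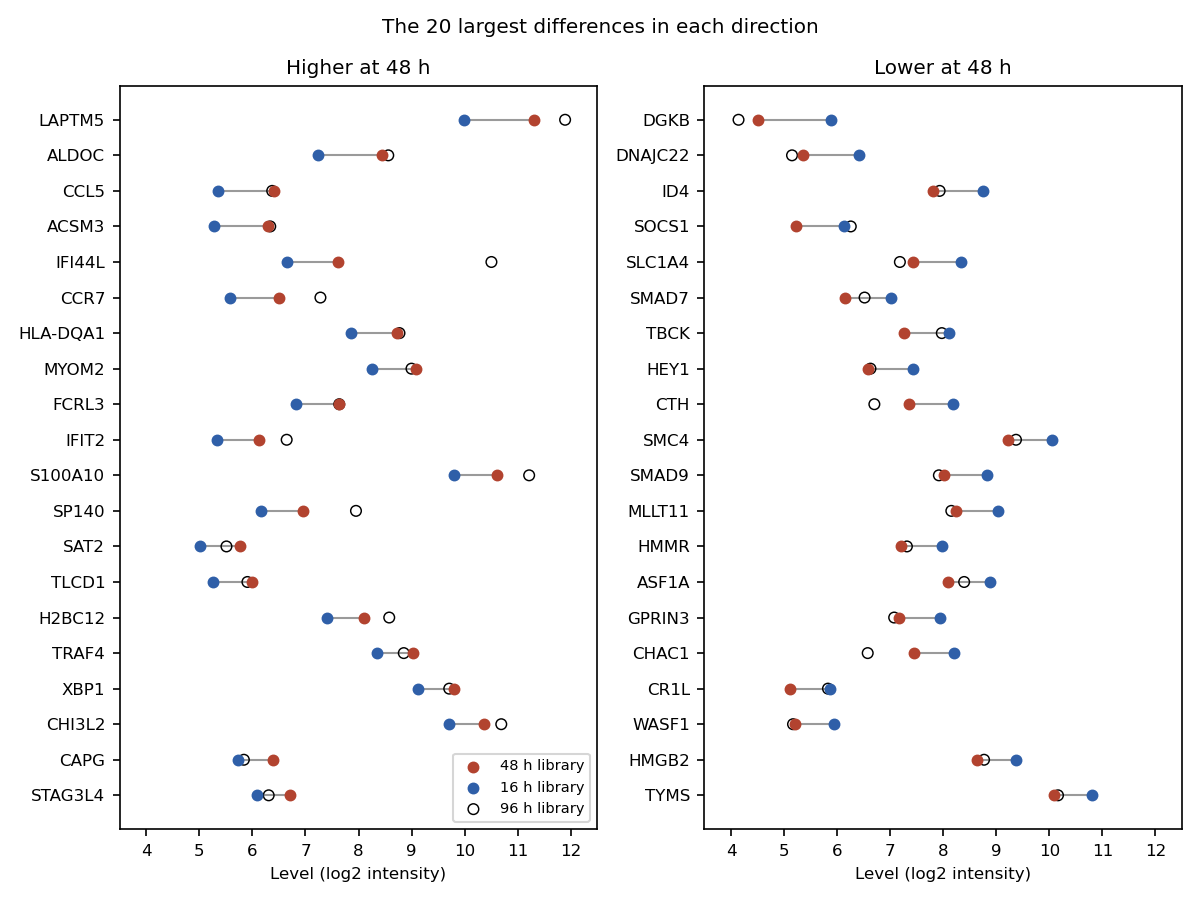
Dots give the log2 intensity (x axis) of the 20 named genes with the largest difference in each direction, in the 48 h library (red), the 16 h library (blue) and the 96 h library (open circles), with a grey line between the 2 compared libraries. LAPTM5, IFI44L, CCR7, S100A10 and SP140 had higher values again at 96 h, while CAPG, SOCS1, TBCK and CR1L at 96 h lay nearer to their 16 h values than to their 48 h values.

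The list with the lowest median was that of mitosis. All 52 listed genes of G2/M and mitosis were past the filter, and 52 of 52 were lower in the 48 h library. Their median difference was -0.50, against -0.025 over all genes past the filter, and 12 of them were at least 1.5-fold lower, where 0.76% of all genes were. Of these 12, 8 stayed past 1.5-fold in every processing setting, while CCNA2, PLK1, FOXM1 and MKI67 came to between -0.58 and -0.51 in at least 1 setting. The list spans a narrow range from -0.82 for SMC4 to -0.16 for BUB3. HMMR, a spindle-associated protein, had 7.19 at 48 h and 7.98 at 16 h. CDC20, the activator of the anaphase-promoting complex, had 9.19 at 48 h and 9.91 at 16 h, and NCAPG, a second condensin subunit, had 9.43 at 48 h and 10.13 at 16 h. CDK1, the kinase that drives entry into mitosis, had 8.17 at 48 h and 8.84 at 16 h. FOXM1, a transcription factor of G2/M genes, had 8.16 at 48 h and 8.79 at 16 h, and the proliferation marker MKI67 had 8.86 at 48 h and 9.51 at 16 h. CDK1 had 8.50 and CDC20 had 9.48 at 96 h, between the other values, and FOXM1 had 8.08. The centromere proteins, taken by symbol, had a median of -0.34 over 18 genes past the filter, with CENPW 7.16 at 48 h and 7.87 at 16 h. The median of the mitosis list lay between -0.51 and -0.44 over the 10 processing settings tried, and it was -0.44 after the correction for brightness.

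Promoters of these genes are shown because genes that differ together can be compared by the elements they carry. The cell cycle genes homology region, searched as TTTGAA on both strands, is the element that MuvB complexes bind. Of the 52 mitosis genes, 45 had a promoter in the RefSeq table of GRCh38.p14, which covers 250 bases before to 50 after the annotated start. The letters were in 29 of these 45 (64.4%), against 15.4% of all 27305 promoters of that table and 9.41% of the 8770 promoters of genes past the filter. Within 70 bases before the start they were in 17 of 45 (37.8%), against 3.14% of all promoters. No difference between the libraries enters these shares, which follow from the choice of list members. Members with and without the letters had medians of -0.51 and -0.50, so the difference between the libraries did not go with the letters inside the list. The 70 bases upstream of the start, all outside the transcribed gene, are printed 5′ to 3′ on the strand of the gene for 4 of the members with the largest differences that hold the letters there, at chr5:163460562-163460631 (plus strand), chr1:43358911-43358980 (plus strand), chr4:17810909-17810978 (plus strand) and chr10:128126424-128126493 (minus strand). Capitals mark the motif.
HMMR: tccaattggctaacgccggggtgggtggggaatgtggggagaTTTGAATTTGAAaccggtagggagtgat
CDC20: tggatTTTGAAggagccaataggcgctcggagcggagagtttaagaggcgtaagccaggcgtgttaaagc
NCAPG: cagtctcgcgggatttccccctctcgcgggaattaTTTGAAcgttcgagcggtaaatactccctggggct
MKI67: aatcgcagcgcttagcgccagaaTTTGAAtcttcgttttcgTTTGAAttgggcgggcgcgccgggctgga
HMMR and MKI67 hold the motif 2 times each. In CDC20 it lies 65 bases before the start, farther than in the other 3. A match is a description of these letters and not evidence of binding.

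Genes of G1/S and DNA replication were lower too, by less. Of 56 listed genes past the filter, 54 were lower at 48 h, and the median was -0.32, or -0.26 after the correction for brightness. At least 1.5-fold lower were 3 of them, against 0.76% of all genes. These 3 were TYMS, which makes thymidylate, with 10.08 at 48 h and 10.81 at 16 h, CCNE2, a cyclin that starts S phase, with 7.42 at 48 h and 8.08 at 16 h, and DTL, a substrate receptor that degrades the licensing factor CDT1, with 8.66 at 48 h and 9.29 at 16 h. DTL was under the threshold in 4 of the 10 settings, at -0.56 after the correction for brightness, and TYMS and CCNE2 were past it in every one. The ribonucleotide reductase subunit RRM2 had 8.32 at 48 h and 8.90 at 16 h, and the replicative helicase subunit MCM6 had 10.05 at 48 h and 10.50 at 16 h. The members above 0 were CCND1, which encodes cyclin D1 and was dim with 5.91 at 48 h and 5.42 at 16 h, and its partner CDK4 with 10.21 at 48 h and 10.16 at 16 h. CCND3, the cyclin D that germinal centre B cells use, had 7.71 at 48 h and 8.24 at 16 h. Among the 20 largest differences on the lower side were also ASF1A, a histone chaperone, with 8.10 at 48 h and 8.88 at 16 h, and HMGB2, a chromatin protein, with 8.63 at 48 h and 9.37 at 16 h. Of 8 variant histones past the filter 7 were at or below 0, with a median of -0.22 and none past 1.5-fold. They ranged from H2AZ1, with 11.70 at 48 h and 12.15 at 16 h, to H2AX, with 8.44 at 48 h and 8.29 at 16 h. In the DNA repair list 31 of 35 genes were at or below 0, the median was -0.24 and none reached 1.5-fold; BRCA1, which acts in homologous recombination, had 8.17 at 48 h and 8.66 at 16 h.

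The inhibitors of cyclin-dependent kinases were not higher as a list. The list has 13 genes, of these inhibitors and of the RB family, and also holds CCNG2, E2F4 and E2F5. Of the 13, 9 were at or below 0, with a median of -0.21, which was -0.10 when probe sets of a gene were averaged. CCNG2, E2F4 and E2F5 were among the 9, with differences of -0.31, -0.10 and -0.27, and so were RB1 and RBL1 of the RB family, with -0.32 and -0.21. The inhibitors themselves lay on both sides of 0. CDKN1A, which encodes p21 and is a reported target of BCL6, had 6.29 at 48 h and 6.64 at 16 h. CDKN1B, which encodes p27, had 8.03 at 48 h and 8.38 at 16 h. CDKN2C and CDKN2A differed by -0.30 and -0.10. The highest difference in the list was that of CDKN2B, with 6.50 at 48 h and 6.34 at 16 h. The inhibitors CDKN1C and CDKN2D were above 0 by 0.03 and 0.05, and RBL2 by 0.12.

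E2F sites were searched as TTTCCCGC, TTTGGCGC, TTTCGCGC and TTTGCCGC on both strands, since E2F factors drive the genes of S phase. They were in 23 of 44 promoters of the replication list (52.3%), against 3.33% of all promoters and 5.51% of promoters of genes past the filter. These shares, too, follow from the choice of list members and not from the differences. Members with a site had a median difference of -0.40 and members without one -0.29. The 70 bases before the start are shown for 4 members with a site there, at chr18:657583-657652 (plus strand), chr1:212035678-212035747 (plus strand), chr3:48188418-48188487 (minus strand) and chr1:23531234-23531303 (minus strand), with the site in capitals.
TYMS: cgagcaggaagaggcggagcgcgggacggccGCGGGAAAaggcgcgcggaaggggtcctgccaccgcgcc
DTL: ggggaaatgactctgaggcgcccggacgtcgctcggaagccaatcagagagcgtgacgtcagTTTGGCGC
CDC25A: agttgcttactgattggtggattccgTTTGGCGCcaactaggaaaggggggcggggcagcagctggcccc
E2F2: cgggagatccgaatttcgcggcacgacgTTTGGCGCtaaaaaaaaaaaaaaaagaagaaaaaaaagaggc
The site reads on the opposite strand in TYMS. CDC25A, a phosphatase that activates the kinases of S phase, had 7.27 at 48 h and 7.83 at 16 h, and E2F2, itself an E2F factor, had 6.60 at 48 h and 7.11 at 16 h.

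**Figure D3:**
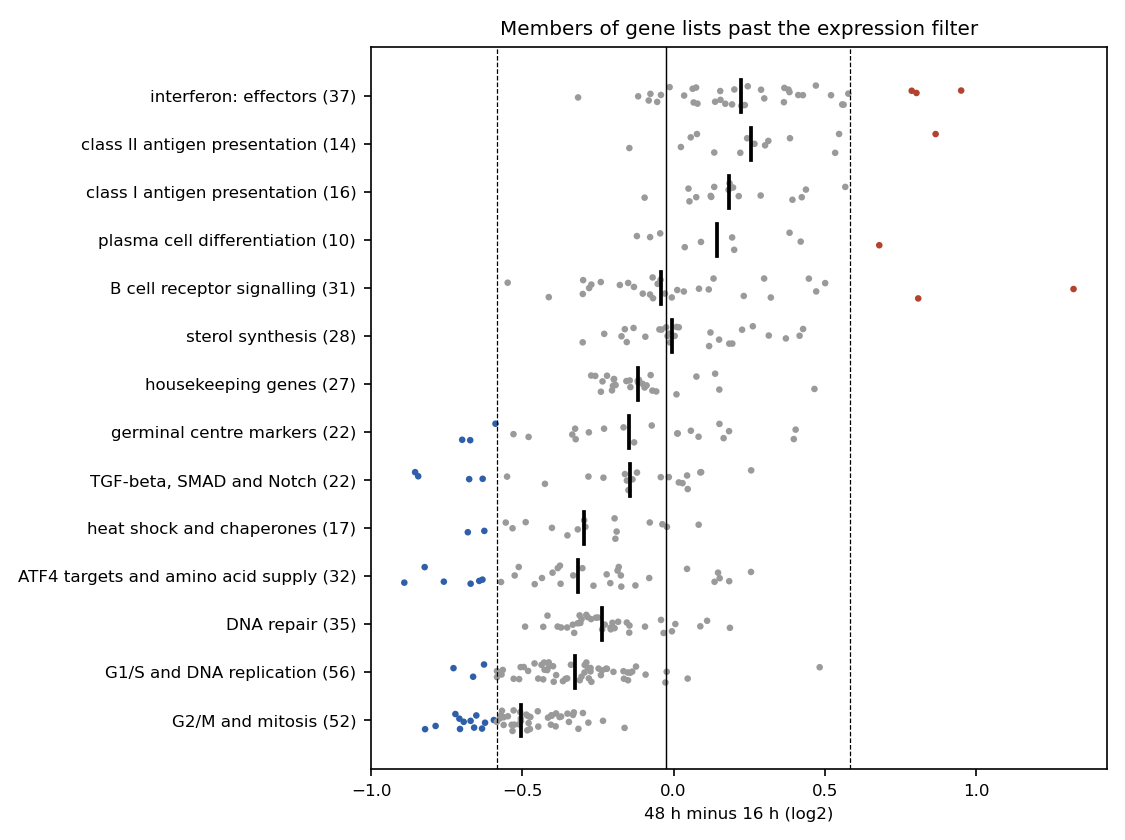
Each dot is a gene past the filter of 1 of 14 lists (number of genes in brackets), placed by its 48 h minus 16 h difference in log2 units, with the list median as a black bar. Red and blue dots are at least 1.5-fold higher and lower, dashed lines mark that threshold, and the solid line is the median of all genes, -0.025. All 52 mitosis genes lie left of 0, and 13 of 14 class II genes lie right of it.

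Genes under ATF4, the transcription factor of the amino acid response, were the next group with a low median. Of 32 genes past the filter 26 were at or below 0, the median was -0.32 and 6 were at least 1.5-fold lower, against 0.76% of all genes. Beside SLC1A4 these were CTH, which makes cysteine, with 7.36 at 48 h and 8.18 at 16 h, CHAC1, which breaks down glutathione, with 7.45 at 48 h and 8.21 at 16 h, and SLC7A11, the cystine importer, with 8.82 at 48 h and 9.49 at 16 h. The others were SLC38A2, a glutamine carrier, with 10.77 at 48 h and 11.41 at 16 h, and CCPG1 with 6.50 at 48 h and 7.14 at 16 h. SLC38A2 and CCPG1 came under the threshold in 1 and 2 settings, at -0.57 and -0.54, and the other 4 in none. CTH, CHAC1, SLC7A11 and CCPG1 were lower again in the 96 h library, at 6.70, 6.58, 7.95 and 5.74. PSPH and PSAT1, enzymes that make serine, had 8.56 and 10.91 at 48 h, against 9.13 and 11.29 at 16 h. ATF4 itself had 8.32 at 48 h and 8.17 at 16 h, a difference of 0.15, and ASNS, asparagine synthetase, had 9.56 at 48 h and 9.74 at 16 h. The aminoacyl-tRNA synthetases, many of which ATF4 also controls, had a median of -0.04 over 20 genes and none reached 1.5-fold.

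Chaperones of the heat shock response were lower in 16 of 17 genes past the filter. Their median was -0.30, or -0.23 after the correction for brightness, and 2 were at least 1.5-fold lower, against 0.76% of all genes. These were CHORDC1, a co-chaperone of HSP90, with 10.02 at 48 h and 10.70 at 16 h, and HSP90AA1, the inducible HSP90, with 11.93 at 48 h and 12.56 at 16 h. HSP90AA1 was under the threshold in 3 settings, at -0.56 after the correction for brightness, and CHORDC1 in none. DNAJB1 had 10.06 at 48 h and 10.60 at 16 h. HSPA8, the constitutive HSP70, had 13.32 at 48 h and 13.51 at 16 h, and the member above 0 was BAG3 with 5.42 at 48 h and 5.34 at 16 h. Chaperones of the endoplasmic reticulum lay on the other side of the all-gene median, with a median of 0.05 over 31 genes, which was 0.12 after the correction for brightness, and 18 were above 0.

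Some genes of BMP, SMAD and Notch signalling were low in the 48 h library, while others differed by little. The 4 inhibitors of E proteins, which block the factors that shape B cell identity, were each at least 1.5-fold lower, but ID1 came to -0.58, just under the threshold, after the correction for brightness. ID1 had 7.81 at 48 h and 8.44 at 16 h, ID2 had 7.54 at 48 h and 8.21 at 16 h, ID3 had 9.88 at 48 h and 10.56 at 16 h, and ID4 had the values given above. In the 96 h library ID1, ID2, ID3 and ID4 had 7.62, 7.90, 10.18 and 7.93, so ID2, ID3 and ID4 lay between their 48 h and 16 h values. SMAD7, the inhibitor that SMAD signalling induces, had 6.16 at 48 h and 7.01 at 16 h, SMAD9, a receptor-regulated SMAD of the BMP branch, had 8.02 at 48 h and 8.82 at 16 h, and HEY1, a Notch target, had 6.58 at 48 h and 7.42 at 16 h. The other Notch target HES1 had 5.46 at 48 h and 5.41 at 16 h, and NRARP had 5.55 at 48 h and 5.53 at 16 h. PMEPA1 and BAMBI differed by -0.02 and -0.16, SMAD6, below the filter, by -0.09, and SKIL by -0.43. Over the whole list of TGF-beta, SMAD and Notch genes the median was -0.14, 15 of 22 were at or below 0, and 4 were at least 1.5-fold lower, against 0.76% of all genes. The median of this list was -0.07 after quantile scaling and -0.06 after the correction for brightness. The transducers SMAD2 and SMAD4 differed by -0.15 and -0.12, so ID1 and ID3 lay farther out than these members of their list. Among 32 B lineage transcription factors past the filter, the median was -0.07 (-0.04 after median centring), and ID1, ID2, ID3 and ID4 were the 4 that reached 1.5-fold.

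**Figure D4:**
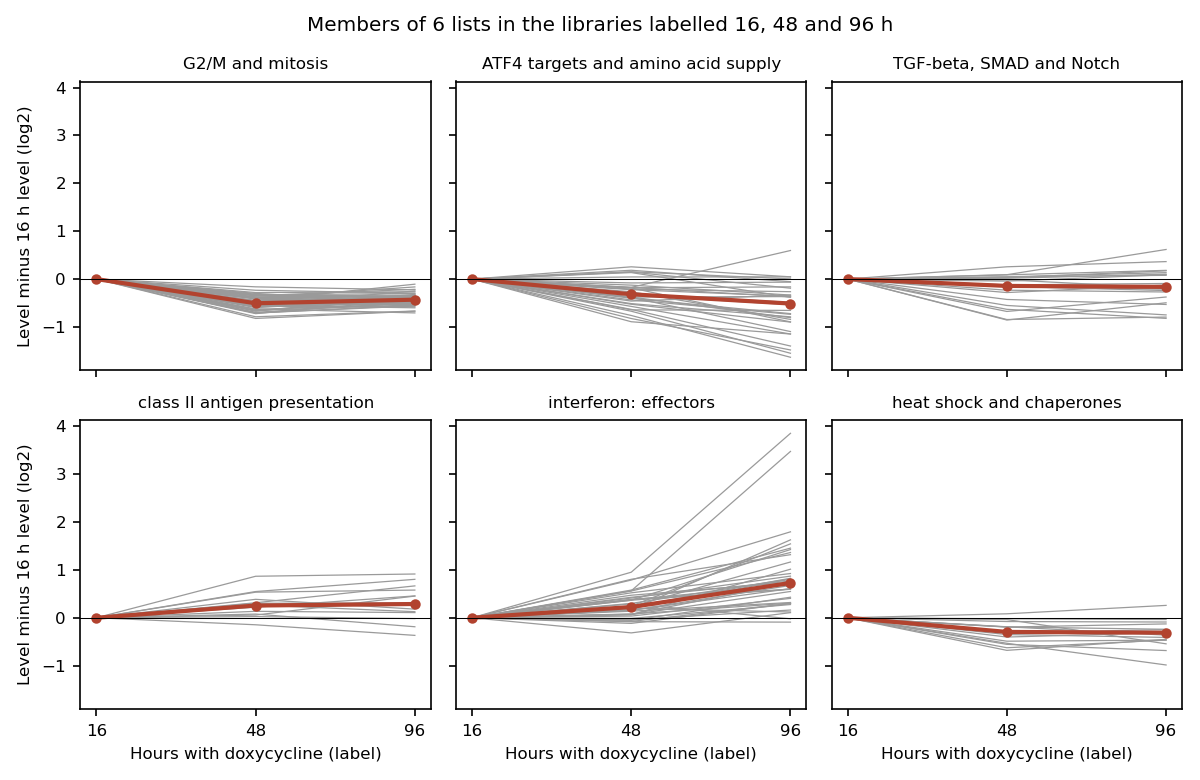
Grey lines follow each gene past the filter of 6 lists through the libraries labelled 16, 48 and 96 h (x axis, equally spaced), as its level minus its own 16 h level in log2 units (y axis), and the red line joins the medians. The 48 h and 96 h points share the 16 h library. The interferon effectors have medians of 0.22 at 48 h and 0.73 at 96 h, and the mitosis genes -0.50 and -0.43.

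Genes of antigen presentation were mostly higher in the 48 h library. Of 14 class II genes past the filter 13 were above 0, with a median of 0.26, and of 16 class I genes 15 were, with a median of 0.18. HLA-DQA1, a chain of HLA-DQ, had 8.72 at 48 h and 7.86 at 16 h and was 1.82-fold higher, the only member past 1.5-fold. HLA-DRA had 10.79 at 48 h and 10.24 at 16 h, HLA-DPB1 had 8.50 at 48 h and 7.97 at 16 h, and the invariant chain CD74 had 10.76 at 48 h and 10.44 at 16 h. CIITA, the master activator of class II, was dim with 5.75 at 48 h and 5.53 at 16 h. In class I, TAPBPL, an editor of peptide loading, had 7.28 at 48 h and 6.71 at 16 h, and the proteasome activator subunits PSME1 and PSME2 had 9.74 and 9.15 at 48 h, against 9.30 and 8.73 at 16 h. B2M, the common light chain, had 11.24 at 48 h and 11.33 at 16 h. The 10 HLA genes past the filter, taken by symbol, were all above 0, but HLA genes resemble each other and a probe set may read more than 1. The subunits of the proteasome itself were on the lower side, with 2 of 36 above 0 and a median of -0.22. The 2 above 0 were PSMB8 and PSMB9, with differences of 0.13 and 0.39, which are also in the class I list.

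Interferon effectors were also mostly higher. Of 37 past the filter 30 were above 0, the median was 0.22 and 3 were at least 1.5-fold higher, where 0.332% of all genes were. Without the filter the median of the effectors was 0.15. The 3 were IFI44L, an interferon-induced protein, with 7.60 at 48 h and 6.65 at 16 h, IFIT2, which binds foreign RNA, with 6.13 at 48 h and 5.33 at 16 h, and SP140, a nuclear body protein, with 6.95 at 48 h and 6.16 at 16 h. IFI44L had 10.50 and SP140 had 7.95 at 96 h. IFIT3, IFI27 and IFI44 had differences of 0.58, 0.56 and 0.56, just under the threshold, and IFI27 had 7.14 at 48 h, 6.58 at 16 h and 10.05 at 96 h. Of the 50 listed effectors 13 were below the filter, among them MX1 with 4.47 at 48 h and 4.41 at 16 h and RSAD2 with 4.10 at 48 h and 4.28 at 16 h. In the second table the difference of IFIT2 was 0.63.

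The signalling genes above the effectors did not share a side. Sensors and adaptors had a median of -0.02 over 19 genes, ligands and receptors of 0.04 over 6, and the JAK, STAT and IRF genes of -0.01 over 17, and each of these medians had either sign among the processing settings. TYK2, the kinase of the type I interferon receptor, had 9.18 at 48 h and 8.56 at 16 h, 1.53-fold higher. IRF9, a DNA-binding factor of the interferon response, had 7.43 at 48 h and 7.14 at 16 h, and SOCS1 was the low member described above. AIM2, a sensor of cytosolic DNA, had 7.42 at 48 h and 7.82 at 16 h.

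The interferon-stimulated response element was searched as GAAANNGAAA on both strands. Its letters can overlap those of TTTGAA, which also hold GAA. It was in 19 of the 30 effectors with a promoter in the table (63.3%), against 3.65% of all promoters and 2.55% of those of genes past the filter. As for the other motifs, such shares follow from the choice of list members and use no difference between the libraries. Effectors with the element had a median difference of 0.25 and those without it 0.19. The 150 bases before the start, outside the transcribed gene, are printed for 4 effectors with the element and differences from 0.56 to 0.95, to show its place and number, at chr1:78620298-78620447 (plus strand), chr10:89327847-89327996 (plus strand), chr14:94110586-94110735 (plus strand) and chr1:78649639-78649788 (plus strand). Capitals mark the element on either strand.
IFI44L: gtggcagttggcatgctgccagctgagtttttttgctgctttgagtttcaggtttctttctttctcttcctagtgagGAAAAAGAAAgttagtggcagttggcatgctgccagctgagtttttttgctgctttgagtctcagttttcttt
IFIT3: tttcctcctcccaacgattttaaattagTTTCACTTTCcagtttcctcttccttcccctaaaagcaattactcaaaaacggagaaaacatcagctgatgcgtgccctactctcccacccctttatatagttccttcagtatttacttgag
IFI27: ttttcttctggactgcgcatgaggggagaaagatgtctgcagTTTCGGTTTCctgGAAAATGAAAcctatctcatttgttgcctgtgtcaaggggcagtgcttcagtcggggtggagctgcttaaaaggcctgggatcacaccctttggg
IFI44: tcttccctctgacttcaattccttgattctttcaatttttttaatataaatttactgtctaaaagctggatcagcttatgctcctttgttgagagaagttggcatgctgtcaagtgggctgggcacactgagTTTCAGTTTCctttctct
IFI27 holds it 2 times, on opposite strands. In IFI44 it lies 18 bases before the start, nearer than in the other 3.

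Germinal centre and B cell genes had no common direction. Of 22 germinal centre markers past the filter, 13 were at or below 0, the median was -0.15 and 3 were at least 1.5-fold lower, against 0.76% of all genes. MME, which encodes CD10, had 10.39 at 48 h and 11.06 at 16 h, MYBL1, a factor of germinal centre B cells, had 5.65 at 48 h and 6.35 at 16 h, and NUGGC, a nuclear GTPase, had 6.67 at 48 h and 7.26 at 16 h. In the second table MYBL1 and NUGGC differed by -0.55 and -0.51, under the threshold, and of the 3 only MME was past it in every setting. SERPINA9 and ELL3 lay on the other side, with 8.29 and 7.82 at 48 h, against 7.89 and 7.41 at 16 h. B cell receptor signalling genes had a median of -0.04 over 31 genes, which ranged from -0.05 to 0.04 over the settings. LAPTM5 and FCRL3 were the members past 1.5-fold, INPP5D, the phosphatase SHIP1, had 10.51 at 48 h and 10.01 at 16 h, and PTPRC, which encodes CD45, had 9.88 at 48 h and 10.43 at 16 h.

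Plasma cell genes had a median of 0.14 over 10 past the filter, 7 of them above 0. XBP1 was the member past 1.5-fold, and MZB1, a chaperone of antibody assembly, had 8.24 at 48 h and 7.85 at 16 h. PRDM1 and IRF4, which drive plasma cell fate, were below the filter with 4.01 and 4.50 at 48 h, against 3.87 and 4.32 at 16 h. A list of 28 genes past the filter that have been reported as repressed by BCL6 had a median of 0.03, which ranged from 0.01 to 0.08 over the settings, with 19 above 0 and none at least 1.5-fold higher. In this list GPR183, a migration receptor, had 5.67 at 48 h and 5.23 at 16 h, CCL3 had 6.62 at 48 h and 6.20 at 16 h, and the member past the threshold was ID2, which was lower.

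Genes of energy supply and protein synthesis differed by little. Ribosomal proteins were above 0 in 54 of 65 genes with a median of 0.08, the highest being RPL15 with 11.10 at 48 h and 10.68 at 16 h. The respiratory chain and ATP synthase were above 0 in 9 of 62 genes with a median of -0.15. Glycolysis and hypoxia genes had a median of -0.13 over 28 genes, so ALDOC stood apart from its list, in which PFKFB3 had 8.29 at 48 h and 8.79 at 16 h and LDHA had 12.17 at 48 h and 12.42 at 16 h. Housekeeping genes, which serve as a reading of the scale, had a median of -0.12 over 27 genes, with 5 above 0 and ACTB with 12.98 at 48 h and 13.25 at 16 h. After the correction for brightness the medians were 0.14 for ribosomal proteins, -0.10 for the respiratory chain, -0.06 for glycolysis and hypoxia and -0.05 for housekeeping genes. The medians of mitosis, replication, ATF4 and heat shock genes lie below those of these 4 lists. After the same correction they were -0.44, -0.26, -0.29 and -0.23. The plot of list medians places all of these beside each other.

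**Figure D5:**
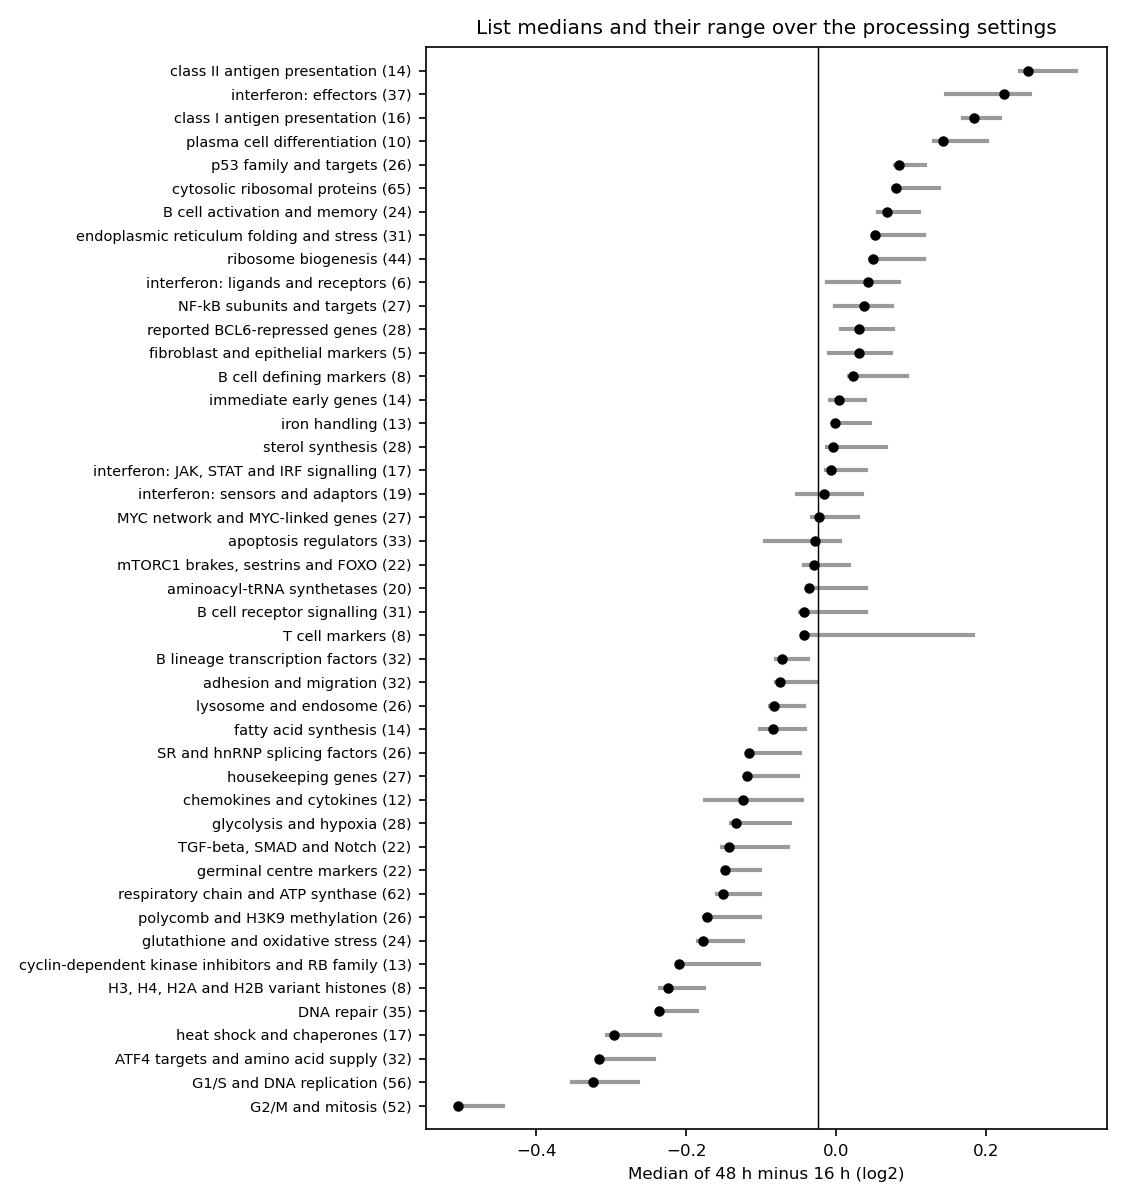
Black dots are the medians of the 48 h minus 16 h differences (x axis, log2 units) of each list with at least 5 genes past the filter (number in brackets), and grey bars span the medians under the 10 processing settings. The vertical line is the all-gene median of -0.025. G2/M and mitosis lies lowest at -0.50 and class II antigen presentation highest at 0.26.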

How the data were processed

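The authors deposited log2 intensity values for the 4 arrays in 2 tables; that these are log2 values was read from the values, and the sources used here do not give their normalization, background correction, software or genome build. The first table (33297 probe sets) gave every main value, and the second (28869) gave gene symbols and an alternative. Of its probe sets 19937 had 1 symbol, 2191 several and 6741 none. Symbols were updated through RefSeq (GRCh38.p14) by accession for 17017, current symbol for 841 and older symbol for 836, and 1243 were kept as deposited. Of 19088 genes, 621 had several probe sets and were represented by the brightest over the 48 h and 16 h libraries.

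The 48 h value minus the 16 h value was computed per gene without a test, with a filter at the 40th percentile of the mean (5.14) and a threshold of 1.5-fold. Arrays give no read depth, and their number limits the precision. The rule for named genes took BCL6, the 20 largest differences per direction, leaving out unnamed loci, antigen receptor segments and genes of small RNAs, and up to 4 members per list and direction past 1.5-fold or else the 2 largest. It named 107 genes; other members printed as examples were chosen after their values were seen. The comparison and the gene lists were chosen with earlier results of these data known. The counting was tested on simulated data. Python 3.11.15, pandas 2.3.3, numpy 2.4.6, scipy 1.17.1, statsmodels 0.14.6 and matplotlib 3.10.9 were used. Alternatives were the second table, quantile, loess and median scaling, other filters, the mean of probe sets, other thresholds, and corrections for genomic span and brightness by a lowess curve.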

Additional observations from a re-analysis of the deposited data

How the results depend on the processing

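Over the 10 settings for table, scaling, filter, probe sets, span and brightness, genes past both the filter and 1.5-fold every time were counted. They were 12 of the 38 higher genes, among them LAPTM5, ALDOC, IFI44L, HLA-DQA1 and XBP1. On the lower side they were 36 of the 87, among them ID4, SLC1A4, HEY1, CTH, SMC4 and CDC20. The filter at the 60th percentile alone kept 18 of the 38 and 65 of the 87, so a gene could be lost by its level and not by its fold. CCR7 is not among the 12, although its difference lay between 0.75 and 0.95 over the settings. The second table, whose differences were smaller (slope 0.891 on the first, Pearson's r 0.995 over 11453 genes, which are not independent), gave 21 higher genes. A filter at the 60th percentile gave 18 higher genes and 21.7% higher, and centring on the median gave 41.7% higher. A threshold of 1.3-fold gave 250 higher and 504 lower genes, and 2-fold gave 5 higher and 4 lower, 55.6% higher. The filters and thresholds change the number of genes counted by their construction; for the second table and the scaling the cause was not tested. The all-gene median lay near 0 throughout, and median centring moved it to 0.01. Of the list medians under alternatives 415 stayed within 0.1 of the main value and 5 moved further (kinase inhibitors with the mean of probe sets, and marker lists of T, NK and monocyte cells with other filters), and of the named genes 951 values stayed within the spread of a single probe set and 12 moved, all in the second table. Part of the 951 could not move. Other filters leave the value of a named gene as it is, and the mean of probe sets changes only genes with several probe sets. No named gene past 1.5-fold turned its sign. No paired analysis was possible because each time has 1 library and the result comes from no test.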

Other observations

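Small nucleolar and Cajal body RNAs, which guide the modification of other RNAs, had a median difference of 0.14 over 103 genes past the filter, with 77 above 0 and none at least 1.5-fold different. SNORD42A had 6.31 at 48 h and 5.75 at 16 h, and SNORD13 had 8.50 at 48 h and 8.89 at 16 h. Their median lay between 0.04 and 0.18 over the 10 settings. Among clustered histone genes past the filter 3 of 15 were above 0, with a median of -0.13. H2BC12 had 8.11 at 48 h, 7.40 at 16 h and 8.58 at 96 h, and H1-5 had 9.94 at 48 h, 10.53 at 16 h and 10.14 at 96 h. These genes have near-identical copies, so their levels are uncertain. Mitochondrial ribosomal proteins had a median of -0.07 over 73 genes.

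The p53 target CCNG1 had 10.31 at 48 h and 9.87 at 16 h, and TP63, a relative of p53, had 9.68 at 48 h and 9.16 at 16 h. The p53 list had a median of 0.08 over 26 genes, 17 of them above 0. Sterol synthesis was split, with 14 of 28 genes above 0; LSS had 8.13 at 48 h and 7.70 at 16 h, DHCR7 had 9.74 at 48 h and 9.33 at 16 h, and INSIG1, which holds the pathway back, had 8.95 at 48 h and 9.25 at 16 h. The integrin chain ITGB7 had 8.24 at 48 h and 8.83 at 16 h, RHOH, a GTPase of blood cells, had 8.45 at 48 h and 9.04 at 16 h, and CXCR4 had 10.74 at 48 h and 11.21 at 16 h, while CXCR5 had 5.75 at 48 h and 5.32 at 16 h. Of 1205 probe sets with no symbol and a level past the filter, 2.74% differed by at least 1.5-fold, 15 higher and 18 lower.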
